A study of Sus scrofa with 4 samples.

Results

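The probe sets that a porcine expression array describes as interleukins, as members of the tumor necrosis factor (TNF) family, as their receptors or as proteins tied to either were followed in the liver of pigs fed clenbuterol and of control pigs. They were chosen by their wording alone: every probe set of the deposited GCRMA table whose array target description holds "interleukin" or "tumor necrosis factor", which gave 36 of 15383 probe sets. A probe set is a group of short probes that reads 1 transcript, and several probe sets can stand for 1 gene, so the 36 cover 30 gene names. Of the 36, 16 were described as pig transcripts and 20 only as similar to a protein of another species, 8 of them highly, 9 moderately and 3 weakly. Names with the ending "-like" mark probe sets named only through such a similarity. By role, 11 read ligands, including the IL-1 receptor antagonist, which is built like a ligand, 13 read receptors, 3 read proteins of cytokine processing or signal transduction, 6 read genes named for their induction by these cytokines, and 3 had a name that holds the words but another function.

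Chinese miniature pigs aged 4 months gave 1 liver array each, 2 pigs per group with 1 male and 1 female in each. All had the same diet up to an age of 8 weeks, at a mean weight of 18 kg. For the next 8 weeks the treated pigs received clenbuterol, an agonist of the beta-2 adrenergic receptor, in the feed at 25 mg/kg 2 times a day for 4 weeks and then at 50 mg/kg for 4 weeks, and the control pigs received the feed without the drug. The wording of the design does not settle whether full sibs shared a treatment or were split between treatments.

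Interleukins and TNF ligands are secreted or membrane-bound signals between cells, mostly of the immune system. IL-1, IL-18 and TNF receptors pass the signal through adaptor proteins to the transcription factor NF-kB, while most other interleukin receptors act through JAK kinases and STAT factors. In the liver, Kupffer cells, the resident macrophages, are a known source of such cytokines, and hepatocytes answer IL-6 and IL-1 with the acute phase proteins of the plasma. An antagonist, the product of IL1RN, occupies the IL-1 receptor without activating it. IL-1 beta and IL-18 are made as inactive precursors that caspase-1 cuts.

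The transcripts of IL18, IL1RN, IL13RA1, an IL1R1-like receptor, CASP1, a TNFAIP9-like protein and DDX58 were higher in the treated pigs, by 1.50 to 2.77 times apart from IL1RN, whose control values were too dim for a fold, and no probe set of the 36 passed the test as lower. In a whole liver sample, fewer cells of a type and less RNA per cell cannot be told apart, nor more of either. The test was limma on the log2 GCRMA values with Benjamini-Hochberg adjustment at 0.05 over all tested probe sets, and it covered the probe sets with a value of at least 4 (log2) on at least 2 arrays. Of the 36 probe sets, 24 met that level and 12 did not. The 7 calls are 29.2% of the 24, where 23.8% of all 11931 tested probe sets were called, so the share called was near that of the whole table. All 7 were higher, and over all tested probe sets 11.4% were called higher and 12.4% lower. At an unadjusted p under 0.05 the count was 10 of the 24. The median difference over the 24 was 0.23 (log2) against −0.03 over all tested probe sets, with a range from −0.66 to 1.47. The values of the 2 groups did not overlap for 17 of the 24, 15 of them higher and 2 lower in the treated pigs, where 68.1% of all tested probe sets did not overlap, 30.8% higher and 37.3% lower.

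**Figure D1:**
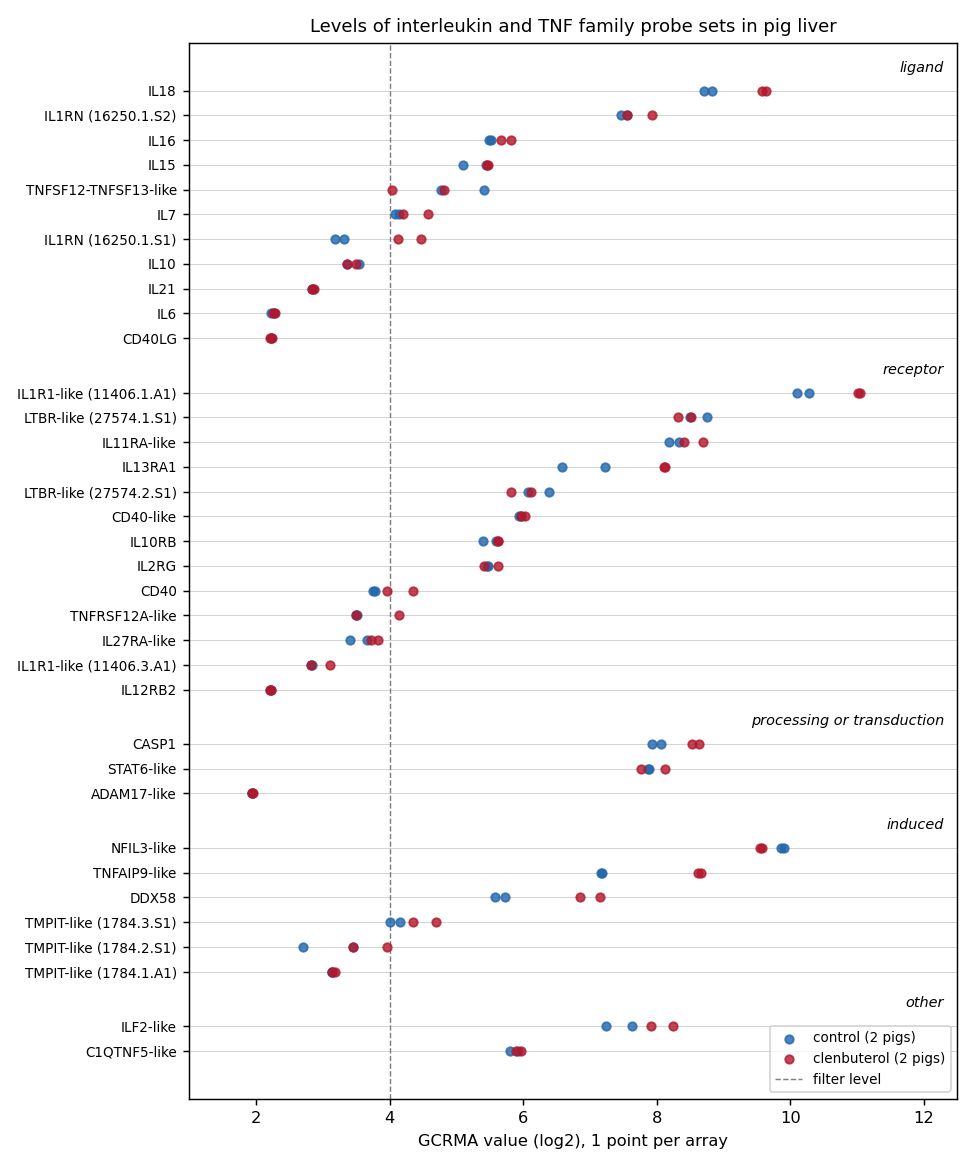
GCRMA value (log2, horizontal axis) of the interleukin and TNF family probe sets on the 2 control arrays (blue) and the 2 clenbuterol arrays (red), 1 point per array, ordered by role and by level, with the filter level of 4 as a dashed line. The treated points of IL18, of the IL1R1-like receptor, of CASP1, of the TNFAIP9-like probe set and of DDX58 lie to the right of both control points, while IL6, IL21 and CD40LG lie below 3 on every array; levels of different probe sets cannot be set against each other.

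Among the ligands, 7 of the 11 probe sets met the filter and 2 were higher, IL18 and 1 of the probe sets of IL1RN. IL18 encodes an IL-1 family cytokine that drives interferon gamma release by T and NK cells. Its GCRMA values were 8.71 and 8.82 (log2) in the controls and 9.57 and 9.64 in the treated pigs. Both treated pigs thus lay above both controls, by more than the spread within either group. The means were 8.77 ± 0.08 and 9.61 ± 0.04 (SD, n = 2 each), a difference of 0.84 ± 0.09 (log2, SE), or 1.79 times, with an adjusted p of 0.00970. With the first or the second treated array left out the difference was 0.87 and 0.81, and the adjusted p was 0.0543 and 0.0533.

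IL1RN, the IL-1 receptor antagonist, was read by 2 probe sets that did not give the same call. On the dimmer of them the values were 3.17 and 3.32 in the controls and 4.47 and 4.13 in the treated pigs. These groups did not overlap, and the fitted difference was 1.05 ± 0.15 (log2) with an adjusted p of 0.0154. It was the only probe set of the 24 that met the filter through the treated arrays alone, its control values lying under 4, so it could not have been called lower and its size depends on how dim signals were summarised. Without it, 6 of 23 probe sets were called. Without the first control array the adjusted p was 0.0576, and without the first treated array it was 0.0568. On the brighter one the values were 7.47 and 7.56 in the controls and 7.92 and 7.55 in the treated pigs. There the second treated pig lay between the controls, and the difference of 0.23 ± 0.15 (95% interval −0.17 to 0.62, adjusted p = 0.326) did not pass the test.

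The other ligands gave no call. IL16, which attracts CD4+ T cells, read 5.48 and 5.52 in the controls and 5.82 and 5.66 in the treated pigs, a difference of 0.24 ± 0.09 with an adjusted p of 0.139. IL7, a growth factor of lymphocytes made by stromal cells, read 4.08 and 4.14 against 4.20 and 4.58, a difference of 0.28 ± 0.15 (adjusted p = 0.235). IL15, which sustains NK cells and memory T cells, read 5.44 and 5.10 against 5.46 and 5.45 (adjusted p = 0.370). In all 3 the treated values lay above the control values, and none of the differences passed the test. A TNFSF12-TNFSF13-like probe set, similar to a fusion transcript of the ligands TWEAK and APRIL, read 4.77 and 5.40 in the controls and 4.82 and 4.04 in the treated pigs. Its groups overlapped, and its difference of −0.66 ± 0.35 (adjusted p = 0.239) had the opposite sign, 0.32, in the deposited intensities.

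The ligands best known from acute inflammation were dim on these arrays. IL6, the main inducer of acute phase proteins, read between 2.23 and 2.28 on the 4 arrays. IL10, which restrains macrophages, read between 3.35 and 3.55, IL21, a product of helper T cells, between 2.83 and 2.86, and CD40LG, the CD40 ligand of activated T cells, between 2.21 and 2.24. None of the 4 met the filter, so none was tested. TNF itself is spelled another way by the array design and so is not among the 36. Its probe set read 4.26 and 3.62 in the controls and 3.84 and 3.68 in the treated pigs and did not meet the filter either. In all, 19 probe sets spell the family another way, of which 13 met the filter, 2 were higher and none was lower. The 2 are described as similar to TNF receptor-associated protein 1, at 1.31, and to a TNF-induced protein, at 0.76. The other probe set of each, at 0.09 and 0.15, was not called. Over all tested probe sets 11.4% were called higher and 12.4% lower.

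Of the 13 receptor probe sets, 8 met the filter and 2 were higher, IL13RA1 and an IL1R1-like receptor. IL13RA1 encodes a chain of the receptor for IL-13 that, with the IL-4 receptor, also binds IL-4. Its values were 6.58 and 7.22 in the controls and 8.12 and 8.10 in the treated pigs. The treated pigs were almost equal, and the wider spread lay between the controls, at 6.90 ± 0.45 against 8.11 ± 0.01 (SD, n = 2 each). The difference was 1.21 ± 0.23, or 2.32 times, with an adjusted p of 0.0284, and its 95% interval ran from 0.61 to 1.82. The call was lost without either treated array, at an adjusted p of 0.113 and 0.106, and also with all 15383 probe sets tested, at 0.0562.

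The IL1R1-like probe set is described as weakly similar to the rat IL-1 receptor, the chain that binds IL-1 and its antagonist, so that its identity is less sure than that of IL18 or CASP1. It read 10.09 and 10.27 in the controls and 11.05 and 11.01 in the treated pigs. The groups stood apart by several times the spread within them, and the difference was 0.85 ± 0.10, or 1.80 times, with an adjusted p of 0.0113. Without the first or the second treated array the adjusted p was 0.0604 and 0.0565. The second probe set of this transcript stayed between 2.82 and 3.11 on all arrays and was not tested.

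The remaining receptors gave no call in either direction. IL11RA-like, for the receptor of the IL-6 family cytokine IL-11, read 8.18 and 8.34 against 8.69 and 8.41, a difference of 0.29 ± 0.13 (adjusted p = 0.185). IL10RB, a chain shared by receptors of the IL-10 family, differed by 0.13 ± 0.10 with a 95% interval from −0.14 to 0.40. IL2RG, the common gamma chain used by the receptors of IL-2, IL-7, IL-15 and IL-21, read 5.46 and 5.47 in the controls and 5.61 and 5.41 in the treated pigs, a difference of 0.05 ± 0.10 with an interval from −0.23 to 0.32. For this gene the deposited intensities were higher in the treated pigs, at 260 against 128 in the males and 221 against 176 in the females. The 2 deposited tables therefore differ on IL2RG by more than the interval.

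The TNF receptor family had 5 probe sets under the rule, none of them called. LTBR-like, for the lymphotoxin beta receptor that activates the alternative NF-kB route, was read by a pair of probe sets, at 8.50 and 8.75 against 8.51 and 8.31, and at 6.07 and 6.39 against 6.11 and 5.82. Their differences, −0.22 ± 0.13 and −0.27 ± 0.17, did not pass (adjusted p = 0.299 and 0.304) and had the opposite sign, at 0.23 and 0.12, in the intensities scaled to spike-in controls, a scaling that moves all probe sets up alike. CD40, the costimulatory receptor of B cells and macrophages, is named here through its deposited gene symbol, since the array design calls this probe set only moderately similar to the human protein. It read 3.75 and 3.78 in the controls and 4.34 and 3.96 in the treated pigs and missed the filter by 1 array. Another probe set that the design names as pig CD40, outside the wording rule, read 3.91 and 3.91 against 3.92 and 4.36 and was not tested either. A CD40-like probe set of weak similarity differed by 0.04 ± 0.08 (interval −0.17 to 0.26). TNFRSF12A-like, for the TWEAK receptor, read 3.50 and 3.51 against 4.13 and 3.50, so only the first treated pig stood apart. TNFRSF1A, the main TNF receptor, falls outside the wording rule; its values were 8.19 and 8.15 against 8.06 and 8.08, a difference of −0.10 ± 0.08 (adjusted p = 0.378). The receptor chains IL12RB2, at 2.21 to 2.22, and IL27RA-like, at 3.67 and 3.40 against 3.82 and 3.73, lay below the filter.

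**Figure D2:**
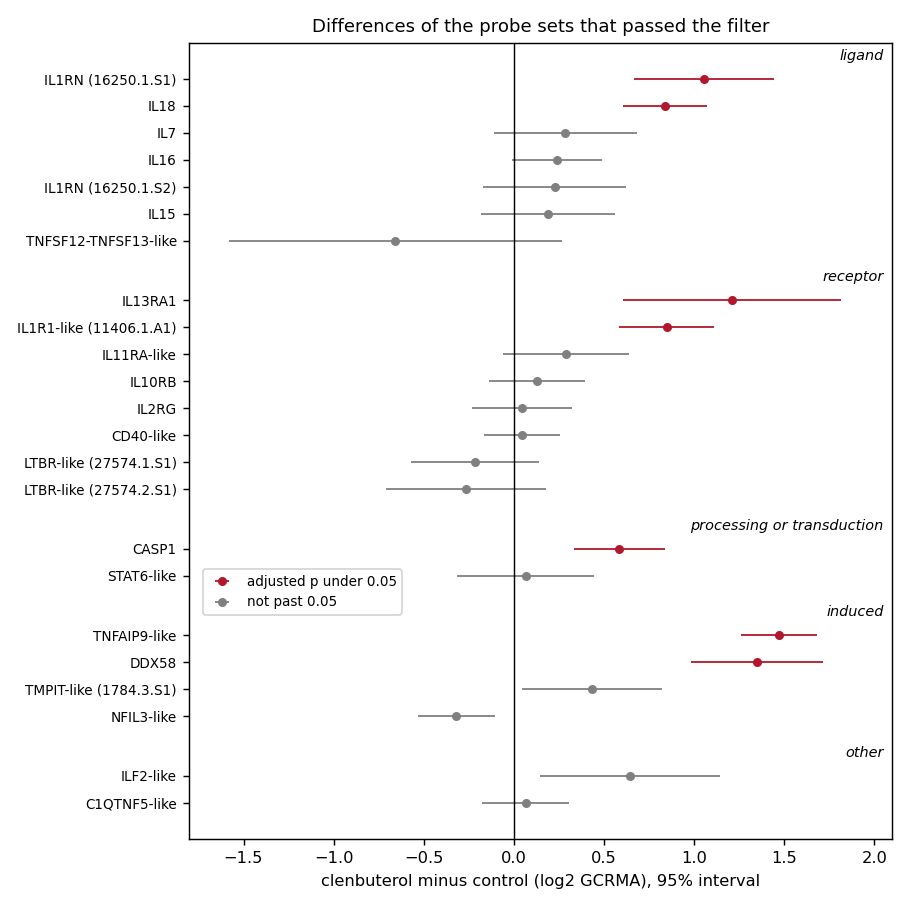
Difference between clenbuterol and control (log2 GCRMA, horizontal axis) of probe sets that met the filter, with the 95% interval of the limma fit, by role; red marks an adjusted p under 0.05. The 7 called probe sets lie between 0.59 and 1.47, and the NFIL3-like probe set, at −0.32, has an interval below 0 but an adjusted p of 0.0533.

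CASP1 encodes caspase-1, the protease of the inflammasome that cuts the precursors of IL-18 and IL-1 beta. It read 8.06 and 7.93 in the controls and 8.53 and 8.63 in the treated pigs. The groups did not overlap, and the difference of 0.59 ± 0.09, or 1.50 times, had an adjusted p of 0.0210. This was the least stable of the 7 calls, since it was lost on leaving out any 1 of the 4 arrays, at adjusted p-values from 0.0596 to 0.0832, and in the deposited intensities, at 0.0609. STAT6-like, for the transcription factor that answers IL-4 and IL-13, read 7.87 and 7.89 against 8.12 and 7.77, and its 95% interval ran from −0.31 to 0.45. ADAM17-like, described as similar to the mouse protease that sheds TNF from the cell surface, lay between 1.93 and 1.95 on all arrays.

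Of the 6 probe sets named for induction by these cytokines, 4 met the filter and 2 were higher, with the largest fitted differences of the 24 probe sets. The TNFAIP9-like transcript, similar to a TNF-induced metalloreductase now called STEAP4 that is found in fat and liver, read 7.18 and 7.16 in the controls and 8.62 and 8.66 in the treated pigs. The spread within each group was very small beside the gap, at 7.17 ± 0.02 against 8.64 ± 0.03 (SD, n = 2 each). The difference was 1.47 ± 0.08, or 2.77 times, with an adjusted p of 0.00382. It was the only 1 of the 7 calls held under all 10 alternative settings, with adjusted p-values from 7.34e-05 to 0.0375. DDX58, which encodes the viral RNA sensor RIG-I and is described by the array design through its response to TNF alpha, read 5.57 and 5.73 against 7.15 and 6.85. Its probe set is of a type that can match more than 1 transcript. Both treated pigs lay more than 1 unit above both controls, and the difference was 1.35 ± 0.14, or 2.55 times, with an adjusted p of 0.00905.

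NFIL3-like, for a leucine zipper repressor named for its regulation by IL-3, had the smallest p of the uncalled probe sets. It read 9.85 and 9.91 in the controls and 9.54 and 9.58 in the treated pigs, so both treated pigs lay below both controls. The difference of −0.32 ± 0.08 had an adjusted p of 0.0533 and was past the threshold with no filter, with the stricter filter and with an intensity trend, at 0.0472, 0.0367 and 0.0269. After scaling to spike-in controls it was −0.08 with an adjusted p of 0.780. TMPIT-like, for a transmembrane protein named as TNF-induced, was read by 3 probe sets. One of them read 4.15 and 4.01 against 4.69 and 4.35, a difference of 0.44 ± 0.15 (adjusted p = 0.0995), and the other two stayed below 4 on every array.

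Probe sets that carry the words without being cytokines or receptors gave no call. ILF2-like, for a nuclear protein first found on the IL-2 promoter, read 7.24 and 7.63 against 7.92 and 8.24. Its groups did not overlap, and its difference of 0.64 ± 0.19 did not pass the test (adjusted p = 0.0738), except with the stricter filter, at 0.0445, and after scaling to spike-in controls, at 0.00630. C1QTNF5-like, a secreted protein with a domain shared by complement C1q and TNF, differed by 0.06 ± 0.09.

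The probe sets below the filter leave a large part of the family undecided. Of the 12, 10 were below 4 on every array, with values from 1.93 to 3.95, and none of these 10 differed between the group means by more than 0.62 in the GCRMA values. The deposited intensities of these dim probe sets differed by more: IL6 read 20.4 and 56.9 in the control and the treated male and 10.4 and 19.6 in the females. IL21 differed in opposite directions, by 0.76 (log2 intensity) in the males and −3.12 in the females. The 10 are IL6, IL10, IL21, CD40LG, IL12RB2, IL27RA-like, ADAM17-like, the second IL1R1-like probe set and a pair of the TMPIT-like probe sets.

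The deposited intensities carry replicate numbers, and the labels give the sex of each pig, male for replicate 1 and female for replicate 2, so the response can be given within the male and within the female pigs, with 1 pig per cell of the comparison and therefore no test. Intensity of IL18 was 711 in the control and 1289 in the treated male, and 833 and 1346 in the females, or 0.86 and 0.69 on the log2 scale. TNFAIP9-like intensity was 279 and 637 in the males and 274 and 675 in the females. Both genes were higher in the treated pig of either sex. The gap was wider in the males for DDX58, at 1.34 against 0.69, for IL1RN on its called probe set, at 1.15 against 0.58, and for IL13RA1, at 1.15 against 0.78. The IL1R1-like receptor differed by 0.58 and 0.49 and CASP1 by 0.41 and 0.53. NFIL3-like was lower in both, by −0.43 and −0.48. Over the 24 probe sets, 16 were higher in both treated pigs, 3 were lower in both and 5 differed in sign, and 74.5% of all tested probe sets had the same sign in both sexes, with 34.7% of all tested higher in both treated pigs. The widest opposite values were those of the TNFSF12-TNFSF13-like probe set, 0.84 in the males and −0.20 in the females.

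**Figure D3:**
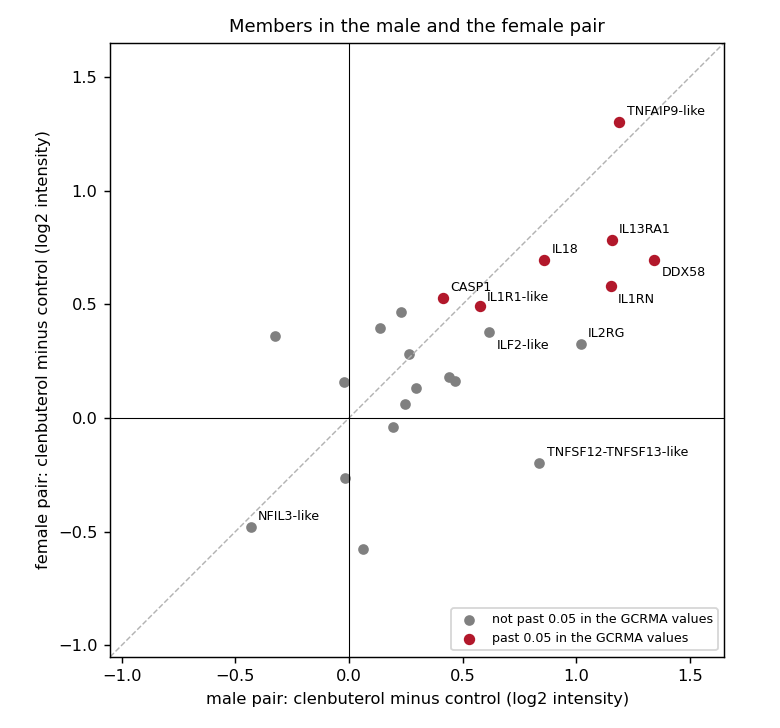
Log2 difference of the deposited intensities between the treated and the control male (horizontal axis) and between the treated and the control female (vertical axis) for probe sets that met the filter, 1 pig per group and sex; red marks the 7 called in the GCRMA values and the dashed line equal differences. The 7 called probe sets are above 0 in both sexes, from 0.41 to 1.34 in the males and from 0.49 to 1.30 in the females.

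Genes that act between these receptors and the nucleus, and known target genes, were described from lists that leave out the 36 probe sets. In the list for NF-kB, TNF and IL-1 signalling, 14 probe sets met the filter, 2 were higher and none was lower, which is 14.3% against the 23.8% of the whole table, with a median difference of 0.09. NFKBIA, the inhibitor that NF-kB itself induces, read 10.11 and 10.17 against 10.82 and 10.78, a difference of 0.66 ± 0.08 (adjusted p = 0.0122). CFLAR, which blocks the death signal of TNF receptors, was higher by 0.78 ± 0.12 on 1 of its probe sets (adjusted p = 0.0181) and by 0.36 ± 0.10 on the other, which did not pass. RELA, an NF-kB subunit, differed by −0.21 ± 0.11 (adjusted p = 0.235), and the adaptor MYD88 by 0.47 ± 0.12 (adjusted p = 0.0612). Among the JAK and STAT genes, JAK1, a kinase shared by many interleukin receptors, differed by 0.17 ± 0.08 (adjusted p = 0.196). STAT3, the factor that IL-6 activates, differed by 0.30 ± 0.08 with an adjusted p of 0.0648.

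Among 15 probe sets for targets of IL-6 in the acute phase response, 6 were higher and 1 was lower, or 46.7% called against 23.8% of all tested probe sets, with a median of 0.35. The plasma proteins ORM1, by 0.74 ± 0.08, ITIH4, by 0.57 ± 0.09, and LBP, which hands bacterial lipopolysaccharide to CD14, by 0.51 ± 0.11, were higher beside CRP and HAMP. Haptoglobin and the 3 fibrinogen chains were not called, at differences from −0.09 to 0.02. Haptoglobin read 15.49 to 15.53 and the fibrinogen chains 13.54 to 15.05. Haptoglobin thus lay near the top of the scale, where a higher level could be missed. CEBPD, a factor that drives acute phase genes, was higher by 0.78 ± 0.14 on 1 of 3 probe sets, and CEBPB was lower, at −0.42 ± 0.09. Of 6 probe sets for targets of TNF in endothelium and leukocytes, 4 were higher and 1 was lower, or 83.3% called against the same 23.8%. Among the 4, CXCL2 met the filter through its treated arrays alone and could only have been called higher. The other probe sets of CXCL2, at differences of 0.01 and 0.62, did not meet the filter. The adhesion molecules VCAM1 and ICAM1, which hold leukocytes at the vessel wall, were higher by 1.12 ± 0.12 and 0.42 ± 0.08, beside the chemokines CCL2 and CXCL2. SOD2, the mitochondrial superoxide dismutase, was lower by its second probe set, at −0.47 ± 0.09, and not called by the first, at 0.22 ± 0.08. These lists were drawn up with earlier results of these pigs known, so their counts are a description.

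**Figure D4:**
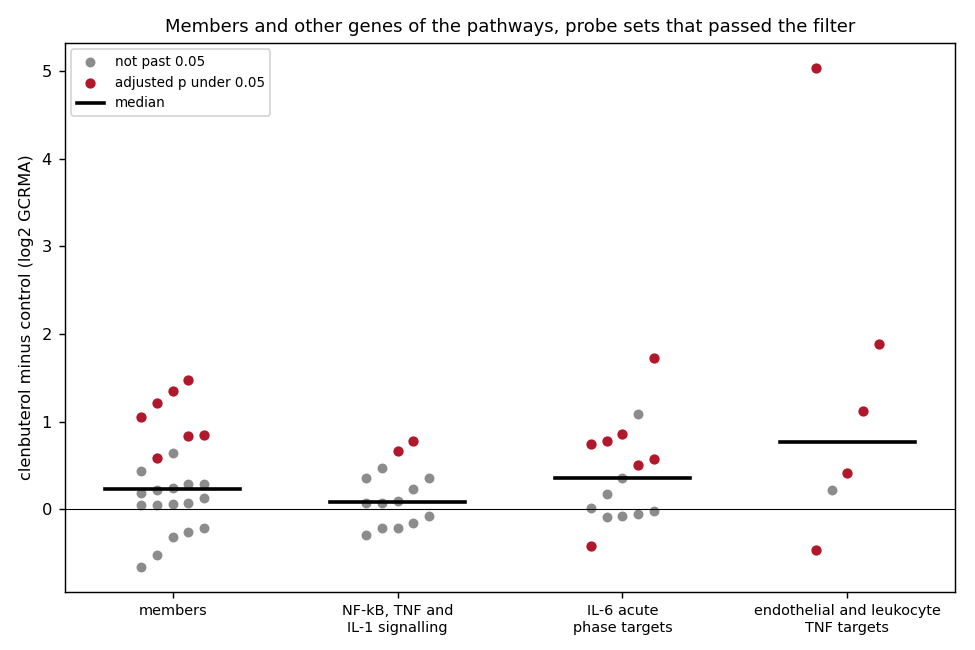
Difference between clenbuterol and control (log2 GCRMA, vertical axis) of the probe sets that met the filter, for the 24 interleukin and TNF family probe sets and for 3 lists of other genes of their pathways; red marks an adjusted p under 0.05 and the bar the median. The medians are 0.23, 0.09, 0.35 and 0.77 from left to right. The point at 5.04 is the only probe set of CXCL2 that met the filter, and its control values lay below the filter level.

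Other measures moved with the treatment beside these genes. In the macrophage list 4 of 6 tested probe sets were higher, with none lower, or 66.7% called against 23.8% of all tested. They were CD14 by 0.70, AIF1 by 0.37, TIMD4 by 0.91 and MARCO by 2.00, the last through its treated arrays alone. Not called were the second probe set of CD14, at 0.23 (adjusted p = 0.361), and CD163, at 0.32 (adjusted p = 0.0548). LYZ lay below 4 on every array. The summed linear level of that list was 4406 and 4507 in the controls and 6317 and 6277 in the treated pigs. In the list for T and NK cells CD2 was higher by 0.89, CD3E and CD8A were not called, CD3G and CD8B were below 4 on every array, and the sum was 309 and 254 against 430 and 417. S100A9 of the neutrophil list read 4.58 and 4.58 against 5.97 and 5.15 without a call, and S100A8 lay below 4 on every array. Of 4 endothelial probe sets the 2 of PECAM1 were higher and that of VWF was lower, by −0.96, and of 6 probe sets of stellate cells and fibroblasts 2 were higher, for COL1A2 and DCN, and 1 was lower, for COL1A1. The hepatocyte sum was 173379 and 173174 against 170088 and 172408, with ALB and TTR at or above 15.20 on every array. That sum rests on a few very bright probe sets, near the top of the scale. Of the 8 hepatocyte probe sets 2 were higher, those of CPS1, by 1.21, and 1 of the 3 of APOB, by 1.09, and none was lower. That is 25.0% called, near the 23.8% of all tested. Of 5 hemoglobin probe sets 3 were lower in the treated pigs and none was higher, or 60.0% called, where 12.4% of all tested were called lower. An uncalled probe set of HBA read 4.82 and 11.31 in the controls and 6.23 and 11.61 in the treated pigs. It differed far more within each group than between the groups. The gap between 3′ and 5′ control probe sets, a measure of RNA length, was smaller in both treated pigs in 7 of 10 pairs. Several of the 7 read the same transcript, GAPDH, so the pairs are not all separate transcripts. The part of these measures in the higher levels of IL18, IL1RN, CASP1 and the other called genes was not tested.

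The table and scale of the values also bear on the counts. The deposited intensities as they stand gave 690 calls higher and 636 lower over the whole table, where the GCRMA values gave 1365 and 1478. When these intensities were scaled to 27 spike-in control probe sets, which moved every probe set by the same amount, the median difference of all tested probe sets went from −0.03 to 0.35 and the calls were 2959 higher and 254 lower. Of the 24 interleukin and TNF family probe sets, 6 were called in the intensities as they stand, or 25.0% against 11.1% of all tested. After the spike-in scaling 15 were called higher and none lower, or 62.5% against 26.9% of all tested. The authors' deposited table marks 3 of the 36 probe sets among its 691 chosen by fold and by 2 tools, with folds of 2.77 for TNFAIP9-like, 2.55 for DDX58 and 2.08 for IL1RN.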

How the data were processed

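Liver RNA of 4 pigs was measured on Affymetrix porcine arrays, 1 array per pig, with cRNA made from 6 ug of RNA, per the labels' protocols. The authors deposited log2 values, made with GCRMA per the submitters' processing notes, in a version not given in the sources used here. GCRMA adjusts background and equalises the arrays, so dim signals and a shift of all genes are poorly measured. The columns show the group but neither replicate number nor sex. A second deposited table holds a linear intensity per probe set for 24123 probe sets with replicate numbers; neither the labels nor the headers say how it was made. Beside the log2 values, the authors deposited a limma p-value, a SAM q-value, a score that is the signed fold between the group means, and another column of 0 or 1 that marks probe sets chosen with both tools, per the file headers.

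The log2 values were fitted with limma 3.58.1 (lmFit and eBayes, R 4.3.3) on group, over the 11931 probe sets with at least 4 on at least 2 arrays, with Benjamini-Hochberg adjustment at 0.05. The fit was tested on simulated data. Probe sets were kept apart, not averaged per gene. Gene names came from the array target descriptions; 17 of the 36 have a deposited symbol and 15 matched a RefSeq gene by ID. The p-values rest on the spread between pigs of a group. For each probe set limma draws that spread toward a value shared by all tested probe sets. The number of arrays limits the precision. Named were the called probe sets, the 6 with the smallest p and the 6 with the highest level of each role, the other probe sets of those genes and the best known inflammatory ligands and receptors. The probe sets, roles and gene lists were chosen with earlier results of these data known. Alternatives were no filter, a mean of at least 6, an intensity trend, the intensities with and without a replicate block or scaled to spike-ins, and leaving out each array; the last leaves 1 array in a group, which is assumed to vary like the other group. Some probe sets that enter the counts are not reported here.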

Additional observations from a re-analysis of the deposited data

How the results depend on the processing

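The differences of the 7 called probe sets stayed above 0 in each alternative that tested them, all 10 for 6 of them and 9 for IL1RN, which the stricter filter leaves out, but 6 of the 7 missed the threshold in at least 1. The count of called probe sets among the 24 was 7, and 3 with the intensities and a replicate block. It was 15 with the intensities scaled to spike-ins, 6 with the unblocked intensities and 8 with an intensity trend. With no filter, 7 of the 36 were called, or 19.4% against 15.3% of all tested. With the stricter filter, 8 of 14 were called, or 57.1% against 32.1%. With no filter, the stricter filter or the trend, 1 of the calls was lower, that of NFIL3-like, and the others were higher. The count among the 24 was smaller than 7 on leaving out any 1 array. Over the whole table it was 2843, and 1326 with the intensities, 1054 with the replicate block, and from 579 to 1213 on leaving out 1 array. On leaving out 1 array the difference of IL2RG ranged from −0.058 to 0.15 and that of STAT6-like from −0.11 to 0.24, both negative without the first treated array. Other values of the opposite sign were 0.23 and 0.12 for LTBR-like and 0.69 for TNFSF12-TNFSF13-like after spike-in scaling, and 0.32 for TNFSF12-TNFSF13-like in the intensities, with or without the block; none of these was called under either setting, and the cause was not tested. Under the block IL1RN, IL1R1-like and DDX58 lost their calls, at adjusted p-values of 0.0635, 0.0642 and 0.0569, and CASP1 was at 0.0771. The labels do not say that a replicate number marks a litter, and deviations of pigs with the same number correlated at 0.177 over 11931 probe sets. The sexes agreed in sign for 19 of 24 probe sets, and for 27 of 36 with no filter and 22 of 24 after spike-in scaling, both added after seeing the data. With 2 pigs a group and dim signals for 12 of the 36 probe sets, small differences could not be detected.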
